A study of Mus musculus with 4 samples.

Results

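The genes described here are the ligands, receptors and inhibitors of the interleukin-1 (IL-1) family, read in basal cells sorted from mouse mammary glands. The 10 genes are Il1a, Il1b, Il18, Il33, Il1rn, Il1r1, Il18r1, Il1rap, Il1r2 and Il18bp, of 18193 genes with a value. They were found by symbol among the 34945 probe sets that the platform annotation assigns to exactly 1 gene, which gave 17 probe sets, and all 10 genes had at least 1. Of the 4 Affymetrix arrays, 2 came from mice fed soy protein isolate (SPI) and 2 from mice fed the control protein casein (CAS). All mice, in both diet groups, carried MMTV-Wnt1, a transgene in which a viral promoter active in mammary epithelium drives the Wnt1 ligand, on the mixed background given as B66SJL/HEV/J. RNA came from freshly sorted cells that the labels call basal and MaSC-enriched, a gate holding stem cells, myoepithelial cells and their progenitors. The labels used here give no age, and do not say whether arrays of a diet came from separate or pooled animals, so the spread behind each p-value is that between these arrays alone and may be technical. The series title names cytokine and chemokine transcripts, and the comparison asks which of these genes differed with diet.

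IL-1 family ligands are small cytokines that act as alarm signals in epithelia. IL-1alpha and IL-1beta bind the receptor IL1R1, which recruits the accessory chain IL1RAP and signals through MYD88 and IRAK kinases to NF-kappaB. IL-18 uses a receptor of the same design with IL18R1 as its binding chain, and IL-33 also signals with IL1RAP. The family carries its own brakes: IL1RN is an antagonist that occupies IL1R1 without signalling, IL1R2 is a decoy receptor that binds ligand without passing on a signal, and IL18BP holds IL-18 in solution. IL-1alpha and IL-33 are kept in epithelial and stromal cells and are released on damage, while IL-1beta is mainly a product of myeloid cells.

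Of the 10 genes, 5 fell on the SPI diet: the receptor chains Il1r1 and Il18r1, the ligands Il18 and Il1a, and the antagonist Il1rn. Il1r1 was 2.05-fold lower in SPI (95% interval 1.78 to 2.36), Il18r1 1.71-fold lower (1.40 to 2.10), Il18 1.48-fold lower (1.27 to 1.73), Il1a 1.47-fold lower (1.30 to 1.66) and Il1rn 1.33-fold lower (lower bound 1.18), with n = 2 arrays per diet. These 5 of 10 stand beside 2.95% of all genes that fell by the same test (limma, Benjamini-Hochberg adjusted p under 0.05 over 18193 genes). None of the 10 rose by limma, where 0.781% of all genes did. Il1r2, Il1rap and Il33 were higher at an unadjusted p under 0.05, which 21.1% of all genes reached in either direction. Il1b and Il18bp had intervals that included 0. The median log2 difference, SPI minus CAS, was -0.26 over the 10 genes and 0.022 over all genes. The genes were chosen with earlier results of these data known.

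**Figure D1:**
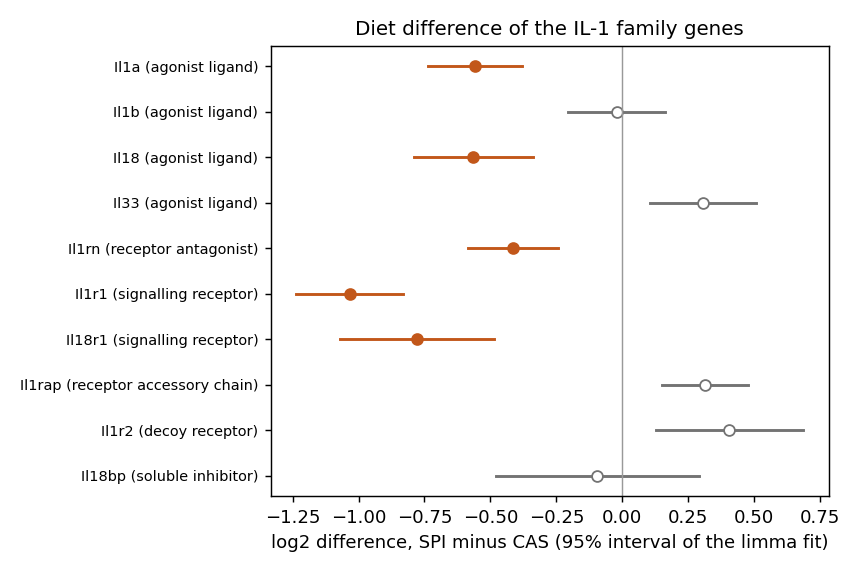
Log2 difference, SPI minus CAS, of each IL-1 family gene (horizontal axis), with its role beside the name. Points are limma estimates from 2 arrays per diet, lines are 95% intervals, and filled orange points passed an adjusted p of 0.05. Il1r1 lies lowest at -1.03 and Il1r2 highest at 0.41.

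With each of 45037 probe sets tested alone, 1 of the 17 passed, the Il1r1 probe set used here (adjusted p = 0.0168), beside 1.25% of all probe sets that fell. Of the 10 genes 0 passed in limma without CAS replicate 1 (7 at an unadjusted p under 0.05), without CAS replicate 2 (8) and without SPI replicate 2 (6). Without either CAS array 0 of all 18193 genes passed in limma, with 3126 and 2865 at an unadjusted p under 0.05, so those counts say nothing particular of the 10. Without SPI replicate 2, 134 of all genes passed. Without SPI replicate 1, 266 did, among them Il1r1 (adjusted p = 0.0395) and Il18r1 (adjusted p = 0.0360). The second Il1r1 probe set was left out, a choice made after the values were seen. Where it keeps its nominal class and stands for the gene, 4 of the 10 passed and Il1r1 did not (-0.13, adjusted p = 0.527). Bacterial and phage transcripts spiked in as hybridization controls had a mean SPI minus CAS of -0.16, and scaling the arrays to them moved the median of all genes to 0.18. On that scale 4 of the 10 fell, where 2.82% of all genes did, and 3 rose, where 8.87% of all genes did. Both SPI arrays lay below both CAS arrays in the 5 genes that fell in the fit of all 4 arrays, which 22.6% of all genes also did, and above both in Il33, Il1r2 and Il1rap, which 29.6% of all genes did.

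The deposited values are on a log2 scale and had been shifted so that the median of each probe set over the 4 arrays is 0. They give differences between arrays and no level, so genes cannot be compared by abundance. The middle pair of values of a probe set is therefore often the same number with opposite signs. A coarse class of the original level could be read from the step between values. All 10 genes had their highest class at 4 to 8 on the log2 scale. Of 17 basal and myoepithelial markers 16 were in the class 8 to 16, Krt5, Krt14 and Trp63 among them. So were 10 of 13 luminal and 6 of 14 fibroblast markers, and 9332 of 45037 probe sets. The class therefore does not tell these cell types apart. A class can stand too high by chance, and classes of different probe sets do not order genes by abundance. The class 4 to 8 does not establish expression, since 8 of 41 olfactory receptor probe sets reached 4 or above. In sorted bulk cells, fewer cells of a type and less RNA per cell cannot be told apart. The median of all probe sets ran from -0.0096 to 0.0092 over the 4 arrays.

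Promoter windows of the 5 genes that fell are shown with that of Il1b, the neighbour of Il1a that did not pass, to give the sequence around the starts of members that fell together. Each is a RefSeq window on GRCm38.p6 of 250 bases before and 50 after an annotated start, 5′ to 3′ on the gene's strand. Where a gene has several annotated starts, the window with the most motif matches was taken (the first where equal). Capitals mark matches on either strand. The motifs were AP-1, spelled TGANTCA, the STAT motif of cytokine receptors, spelled TTCNNNGAA, the core promoter element TATAAA, and the consensus motifs of IRF and NF-kappaB.
Il1a: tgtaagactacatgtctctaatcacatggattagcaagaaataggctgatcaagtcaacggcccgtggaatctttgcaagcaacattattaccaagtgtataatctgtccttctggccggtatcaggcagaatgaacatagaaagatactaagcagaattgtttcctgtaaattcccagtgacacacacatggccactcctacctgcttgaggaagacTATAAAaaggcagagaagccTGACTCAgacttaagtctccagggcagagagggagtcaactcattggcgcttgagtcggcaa
Il1b: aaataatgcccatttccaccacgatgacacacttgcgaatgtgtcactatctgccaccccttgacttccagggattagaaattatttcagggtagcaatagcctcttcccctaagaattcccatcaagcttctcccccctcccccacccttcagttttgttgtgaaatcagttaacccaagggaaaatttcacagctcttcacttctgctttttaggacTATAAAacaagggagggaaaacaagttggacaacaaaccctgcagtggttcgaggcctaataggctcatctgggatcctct
Il1rn: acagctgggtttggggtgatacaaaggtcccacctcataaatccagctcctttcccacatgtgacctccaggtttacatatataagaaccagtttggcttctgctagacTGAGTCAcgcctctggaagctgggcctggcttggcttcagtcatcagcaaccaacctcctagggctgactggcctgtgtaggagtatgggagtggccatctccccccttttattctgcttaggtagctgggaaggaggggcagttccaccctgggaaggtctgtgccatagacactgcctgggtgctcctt
Il18: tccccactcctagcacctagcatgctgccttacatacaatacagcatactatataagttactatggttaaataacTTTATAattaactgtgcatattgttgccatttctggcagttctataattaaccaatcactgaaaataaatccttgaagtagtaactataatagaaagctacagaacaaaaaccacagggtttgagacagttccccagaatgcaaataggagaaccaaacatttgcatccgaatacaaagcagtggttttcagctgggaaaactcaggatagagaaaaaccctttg
Il1r1: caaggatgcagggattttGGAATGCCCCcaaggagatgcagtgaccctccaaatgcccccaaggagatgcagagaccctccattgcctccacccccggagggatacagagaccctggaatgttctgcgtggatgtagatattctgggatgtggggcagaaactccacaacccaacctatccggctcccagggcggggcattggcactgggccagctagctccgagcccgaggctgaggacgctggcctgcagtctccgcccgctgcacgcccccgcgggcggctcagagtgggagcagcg
Il18r1: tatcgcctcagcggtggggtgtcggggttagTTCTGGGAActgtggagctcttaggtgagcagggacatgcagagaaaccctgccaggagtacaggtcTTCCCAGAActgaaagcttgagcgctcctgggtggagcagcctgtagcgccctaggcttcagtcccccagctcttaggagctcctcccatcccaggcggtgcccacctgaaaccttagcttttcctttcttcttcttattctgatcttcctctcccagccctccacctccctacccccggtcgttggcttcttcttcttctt
The windows are Il1a at chr2:129309923-129310222 (minus strand), Il1b at chr2:129371090-129371389 (minus), Il1rn at chr2:24336610-24336909 (plus), Il18 at chr9:50554450-50554749 (plus), Il1r1 at chr1:40266336-40266635 (plus) and Il18r1 at chr1:40465756-40466055 (plus). The Il1a window held TATAAA 32 bases before the start and an AP-1 match 12 bases before it, and the Il1b window held TATAAA 31 bases before its start and no AP-1 match. An AP-1 match also lay 141 bases before this Il1rn start. The Il18r1 window held 2 STAT matches, 219 and 152 bases before the start, and the Il1r1 window 1 NF-kappaB match, 232 bases before it. The Il18 window held only TATAAA on the opposite strand, 175 bases before the start. No match overlapped another. All 10 genes had at least 1 window, 16 in all. Of the windows not shown for these genes, 1 of Il1rn held TATAAA on the opposite strand, after the start. The others of Il1rn, Il1r1 and Il18r1 held none of the motifs. Among the members not shown, which did not fall, the Il1r2 window held a STAT match 111 bases before the start. The Il1rap window held an IRF match after the start, each Il33 window held TATAAA, and the Il18bp window held none. Of 32851 windows in the table, 7.81% held AP-1, 8.30% STAT, 3.44% the IRF consensus, 8.46% the NF-kappaB consensus and 13.6% TATAAA. A match describes letters and shows no binding, and genes with more annotated starts had more windows searched.

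Among the agonist ligands, Il1a encodes the IL-1 form that cells hold ready in the cytoplasm and nucleus. Its probe set read -0.29 and -0.25 on the SPI arrays, against 0.25 and 0.33 on the CAS arrays. The diets did not overlap, and the arrays within a diet lay close together. The log2 difference was -0.56 (SE 0.07, limma adjusted p = 0.0227). On its own among all probe sets it just missed the threshold (adjusted p = 0.0504).

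Il1b encodes the secreted, myeloid form, and lies next to Il1a on chromosome 2. It read 0.0011 and -0.0011 on the SPI arrays, against -0.037 and 0.079 on the CAS arrays. The SPI arrays lay between the CAS arrays, and the difference was -0.02 (95% interval -0.21 to 0.16, limma adjusted p = 0.904). With arrays scaled to the spiked-in controls it was 0.13 (adjusted p = 0.314).

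Il18 encodes a ligand that is stored as a precursor in epithelial cells and cut by caspase-1. It read -0.22 and -0.42 on the SPI arrays, against 0.22 and 0.26 on the CAS arrays. Both SPI arrays were low, SPI replicate 2 more so, and the log2 difference was -0.56 (SE 0.09, limma adjusted p = 0.0402). Among all probe sets on their own the adjusted p was 0.0730.

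Il33 encodes the nuclear alarm cytokine that acts on mast cells and type 2 lymphocytes. It ran the other way, at 0.10 and 0.18 on the SPI arrays, against -0.23 and -0.10 on the CAS arrays. The diets did not overlap, but the difference of 0.31 (95% interval 0.11 to 0.51) did not pass (limma adjusted p = 0.115). With arrays scaled to the spiked-in controls it was 0.46 and passed (adjusted p = 0.0257).

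The antagonist Il1rn was read by 3 probe sets, and they disagreed. Probe set 1451798_at read -0.57 and -0.28 on the SPI arrays, against 0.63 and 0.28 on the CAS arrays, a log2 difference of -0.87 (adjusted p = 0.0860 on its own). Probe set 1425663_at read -0.07 and -0.28 in SPI, against 0.07 and 0.24 in CAS, a difference of -0.33. Probe set 1423017_a_at, which reads several transcripts of the gene, was at 0.10 and -0.19 in SPI, against -0.05 and 0.05 in CAS, so that its diets overlapped at a difference of -0.04. None of the 3 passed on its own, with 2 at an unadjusted p under 0.05, which 8006 of 45037 probe sets reached. Their mean gave -0.18 and -0.25 on the SPI arrays, against 0.21 and 0.19 on the CAS arrays, a log2 difference of -0.42 (SE 0.07, limma adjusted p = 0.0434). Within the SPI diet the probe sets differed in which array was lower. With arrays scaled to the spiked-in controls the mean missed the threshold (-0.26, adjusted p = 0.104).

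**Figure D2:**
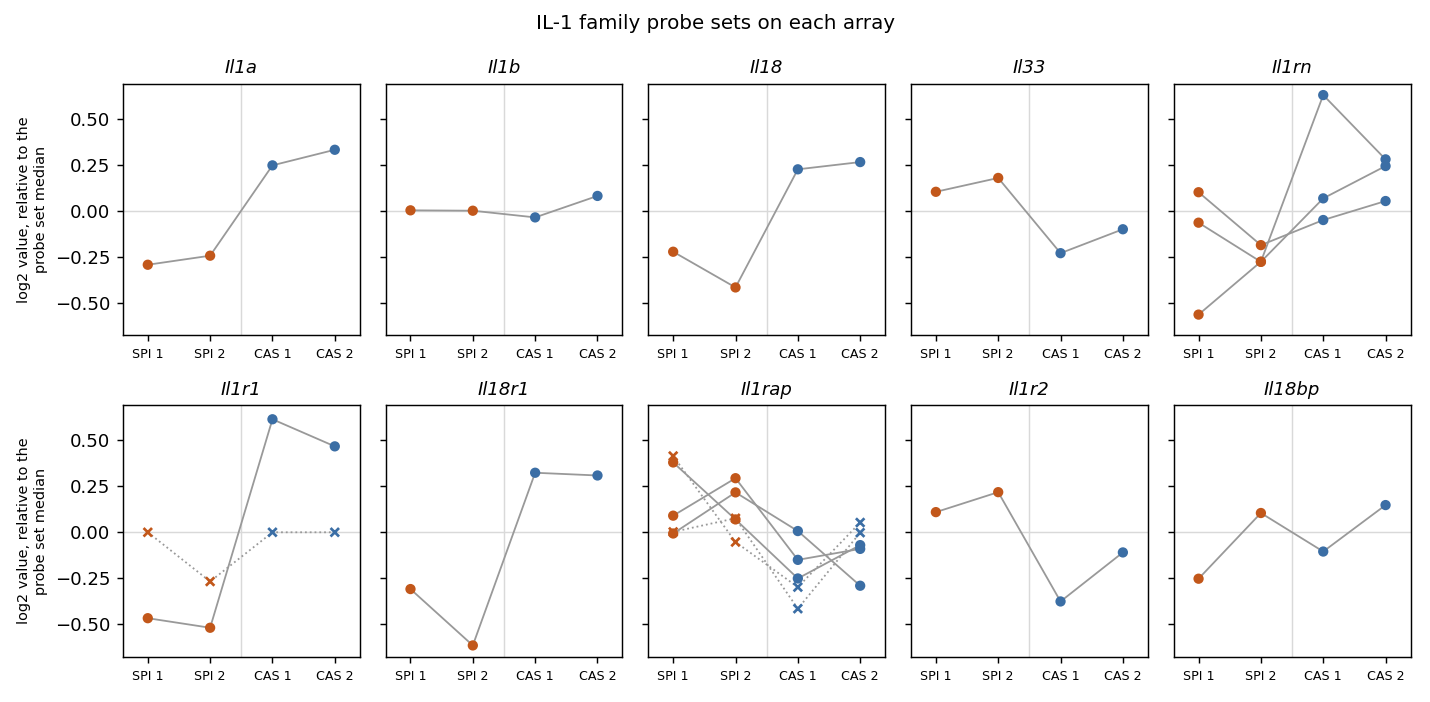
Deposited log2 value, relative to the median of the probe set over the 4 arrays (vertical axis), on each SPI array (orange, left) and each CAS array (blue, right). Each line is 1 probe set, and dotted lines with crosses are probe sets not used for the gene's value. The Il1r1 probe set used and that of Il18r1 lie at -0.31 or below on both SPI arrays and at 0.31 or above on both CAS arrays.

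Il1r1, the signalling receptor for IL-1alpha and IL-1beta, had the largest difference of the 10 genes. Probe set 1448950_at read -0.47 and -0.52 on the SPI arrays, against 0.61 and 0.47 on the CAS arrays. The diets were far apart and the arrays within a diet close together, with a log2 difference of -1.03 (SE 0.08, limma adjusted p = 0.00790). The other Il1r1 probe set, 1459777_at, has no accession in the platform annotation. It read 0 and -0.27 on the SPI arrays, against 0 and 0 on the CAS arrays, and its difference of -0.13 did not pass (adjusted p = 0.587 on its own). Because equal values leave its level class unreadable, it was not used. With the class its step happens to give, 8 to 16, it would replace the first probe set and end the call. With the mean of both probe sets Il1r1 was at -0.58 (adjusted p = 0.0251).

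Il18r1, the binding chain of the IL-18 receptor, read -0.31 and -0.61 on the SPI arrays, against 0.32 and 0.31 on the CAS arrays. The CAS arrays were nearly equal and the SPI arrays apart from each other, both below CAS. The log2 difference was -0.78 (SE 0.11, limma adjusted p = 0.0354), and the probe set on its own had an adjusted p of 0.0624.

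Il1rap, the accessory chain shared by the receptors for IL-1 and IL-33, was read by 5 probe sets, and all 5 had a higher mean in SPI, by 0.25 to 0.38 on the log2 scale. The mean of the 3 in the higher level class was 0.15 and 0.19 on the SPI arrays, against -0.13 and -0.15 on the CAS arrays. The diets did not overlap, yet the difference of 0.31 (95% interval 0.15 to 0.48) did not pass (limma adjusted p = 0.0730). It passed among the 13442 genes at level 4 or above (adjusted p = 0.0380) and with arrays scaled to the spiked-in controls (0.47, adjusted p = 0.0253). Of the 5 probe sets, 1421844_at, 1439697_at and 1449585_at had both SPI arrays above both CAS arrays, which 29.6% of all genes did. In 1439697_at, of level class 2 to 4, the gap was narrow, with SPI replicate 1 at 0.0020 and CAS replicate 2 at -0.0020.

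Il1r2, the decoy receptor, read 0.11 and 0.22 on the SPI arrays, against -0.38 and -0.11 on the CAS arrays. Both SPI arrays were higher, CAS replicate 1 stood lowest, and the difference of 0.41 (95% interval 0.13 to 0.69) did not pass (limma adjusted p = 0.127). With arrays scaled to the spiked-in controls it was 0.56 and passed (adjusted p = 0.0183).

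Il18bp, the soluble inhibitor of IL-18, read -0.25 and 0.10 on the SPI arrays, against -0.10 and 0.15 on the CAS arrays. The diets overlapped, and replicate 1 of each diet was the lower array. The difference was -0.10 (95% interval -0.48 to 0.29, limma adjusted p = 0.772), and 0.060 with arrays scaled to the spiked-in controls.

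Pairs that meet in 1 receptor complex, compete for a receptor or bind each other can be set side by side within an array, as changes only, since no levels remain. These pairs were chosen after the values were seen and were not tested. The decoy Il1r2 minus the signalling receptor Il1r1 was 0.58 and 0.74 log2 units on the SPI arrays, against -0.99 and -0.58 on the CAS arrays, a shift of 1.44. The accessory chain Il1rap minus Il1r1 was 0.62 and 0.71 in SPI, against -0.75 and -0.62 in CAS. Since Il1r2 and Il1rap were each higher and Il1r1 lower on both SPI arrays, these differences had to separate the diets. The antagonist Il1rn minus its competitor Il1a was 0.12 and -0.0028 in SPI, against -0.031 and -0.14 in CAS. That shift of 0.14 was small beside the fall of either gene. It depends on averaging the 3 Il1rn probe sets, whose log2 differences were -0.87, -0.33 and -0.04. The inhibitor Il18bp minus Il18 was -0.028 and 0.52 in SPI, against -0.33 and -0.12 in CAS.

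Neighbouring genes of the family did not all pass the threshold together. In the gene order of GRCm38.p6, the receptor genes on chromosome 1 run Il1r2, Il1r1, Il1rl2, Il18r1 and Il18rap among those measured. Their log2 differences were 0.41, -1.03, -0.15, -0.78 and 0.00077 in that order, with Il1r1 and Il18r1 past the threshold. On chromosome 2, Il1rn (-0.42) ends a run of IL-36 and IL-38 genes that lay between -0.052 and 0.054, and elsewhere on that chromosome Il1a (-0.56) adjoins Il1b (-0.02). Among these neighbours Il18rap and Il1f10 had no level class, and Il36a, Il36b and Il36rn were in the class 2 to 4. A difference near 0 in such genes does not show that they stayed unchanged. Chromosomes 9, 19, 16 and 7 hold Il18, Il33, Il1rap and Il18bp.

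**Figure D3:**
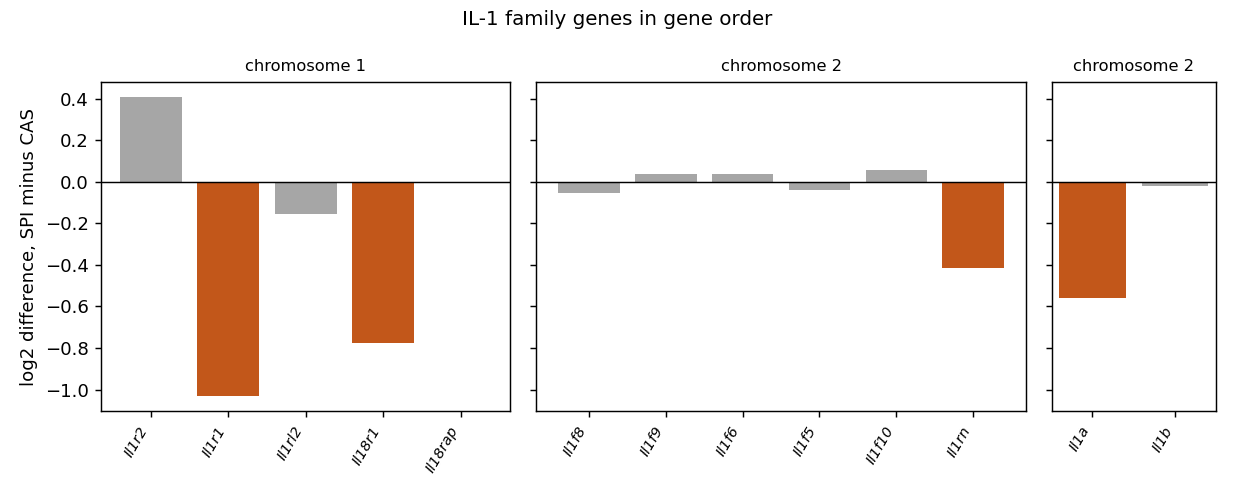
Log2 difference, SPI minus CAS, of IL-1 family genes measured here in their order along 3 clusters, with 2 arrays per diet. Orange bars passed an adjusted p of 0.05. On chromosome 1 Il1r2 at 0.41 stands beside Il1r1 at -1.03, and on chromosome 2 Il1a at -0.56 beside Il1b at -0.02. Il18rap and Il1f10 had no level class, and the IL-36 genes Il1f5, Il1f6 and Il1f8 were in the class 2 to 4.

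Each gene that fell was set beside the 3 genes whose 4 values lay nearest to its own by Euclidean distance over the 4 arrays, a likeness that mostly reflects the size of the diet difference. For Il1r1 these were Pygl (distance 0.0169), Osbpl3 (0.0354) and Irgm1 (0.0833). For Il18r1 they were Lad1, Evpl and Cldn3, at distances of 0.0382 to 0.0807. For Il18 they were Aldh1a1, Gstt2 and H2-D1, at 0.0216 to 0.0411. For Il1a they were Ifi35, Ezh2 and Fgl2, at 0.0420 to 0.0504, and for Il1rn Birc5, Casp14 and Egflam, at 0.0174 to 0.0239.

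Of 5 other ligands of the family, the IL-36 genes and Il1f10, none passed in limma, at an adjusted or an unadjusted p under 0.05, and their median was 0.036. The 3 with the smallest p were Il1f10 (0.05), Il36b (-0.05) and Il36g (0.04). Of 5 other receptors measured 1 fell, where 2.95% of all genes did, namely Sigirr, an inhibitory receptor that dampens IL-1 signalling. It read -0.23 and -0.20 on the SPI arrays, against 0.23 and 0.20 on the CAS arrays (log2 difference -0.43, limma adjusted p = 0.0360), and no gene of that list passed with arrays scaled to the spiked-in controls.

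The signalling chain downstream of the receptors showed no call. Of 16 genes measured, from the adaptor Myd88 to the IkappaB kinases, 0 passed in limma, and their median was -0.054. At an unadjusted p under 0.05, which 21.1% of all genes reached in either direction, 2 of the 16 were lower. The 3 with the smallest p were the kinases Irak2 (-0.31, limma adjusted p = 0.0971), Map3k3 (-0.19) and Irak3 (-0.11), the last of which restrains the pathway. Of 19 genes for processing and release 1 fell, where 2.95% of all genes did. It was the mast cell chymase Cma1, which can cut IL-33 (log2 difference -1.20, limma adjusted p = 0.00606). The median of those 19, which include Casp1, Nlrp3 and Gsdmd, was -0.070.

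Of 27 genes that IL-1 is known to induce, 9 fell in limma, where 2.95% of all genes did, 0 rose and 18 did not pass. At an unadjusted p under 0.05, which 21.1% of all genes reached in either direction, 16 of the 27 were lower and 2 higher. The matrix enzyme Mmp3 was lower by 1.93 on the log2 scale, at -1.10 and -0.92 on the SPI arrays, against 0.92 and 0.92 on the CAS arrays (limma adjusted p = 0.00268). Its CAS values were equal, so its 1 probe set had no level class and was used for want of another. The neutrophil chemokine Cxcl5, in the level class 2 to 4, was at -1.45, the cytokine Il6 at -1.20 and the endothelial adhesion molecule Sele at -0.73. Saa3, an acute-phase protein, was at -0.72, Mmp13 at -0.70, the granulocyte factor Csf3 at -0.53, Vcam1 at -0.52 and the NF-kappaB inhibitor Nfkbia at -0.49. The adjusted p of these 8 lay between 0.00809 and 0.0449. These genes answer to many signals besides IL-1, and several were known from earlier results of these data to be lower. The list median was -0.31. The count of 9 was 4 without SPI replicate 1, 2 without SPI replicate 2, and 0 in limma without CAS replicate 1 (13 at an unadjusted p under 0.05) and without CAS replicate 2 (15). With arrays scaled to the spiked-in controls 7 of the 27 fell, where 2.82% of all genes did, and the median was -0.15. On that scale Mmp9 rose, where 8.87% of all genes did. Of 7 genes that answer to IL-18 or IL-33 in lymphocytes, none passed in limma and Csf2 (-0.57, limma adjusted p = 0.159) was lower at an unadjusted p under 0.05. The next smallest p were those of Gzmb (0.29) and Il5 (-0.07).

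Over these companion lists together, 26 of 78 genes were at an unadjusted p under 0.05, which 21.1% of all genes reached. Of the 78, 11 fell, where 2.95% of all genes did, and 0 rose, where 0.781% did. By limma the count was 0 without CAS replicate 1 and without CAS replicate 2 (20 at an unadjusted p under 0.05 in each case), as over all genes, 5 without SPI replicate 1 and 3 without SPI replicate 2. With arrays scaled to the spiked-in controls 8 fell, where 2.82% of all genes did. On that scale 2 rose, Mmp9 and the lymphocyte protease gene Gzmb, where 8.87% of all genes did.

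Markers of other cell types moved on the same arrays, and their part in the differences above was not tested. Over all genes 2.95% fell by the same test, the share to set beside the counts that follow. Of 14 fibroblast markers 12 fell, with list medians of -0.66 and -0.71 on the SPI arrays, against 0.69 and 0.63 on the CAS arrays. Col1a1 was at -1.70, and Lum had the lowest value of the list at -2.32, while Dcn (0.0080) and Fbln1 (-0.09) did not pass. Of 10 endothelial markers 3 fell, with medians of -0.20 and -0.37 in SPI, against 0.39 and 0.28 in CAS, and Pecam1 (-0.47) did not pass. Of 13 luminal markers 3 fell, with medians of -0.16 and -0.26 in SPI, against 0.21 and 0.20 in CAS. Of 8 mast cell markers 3 fell, Mcpt4, Cpa3 and Fcer1a, and the list median of the log2 difference was -0.13. The other 5 did not pass: Tpsab1 (-0.18), Gata2 (-0.09), Ms4a2 (-0.05), Hdc (-0.03) and Tpsb2 (0.13). Fibroblasts and endothelial cells are also known to express Il1r1. Of the ligands also kept in stromal cells, Il1a fell (-0.56), while Il33 was higher (0.31) and did not pass. Without CAS replicate 1 or CAS replicate 2, 0 fibroblast markers passed in limma (12 at an unadjusted p under 0.05 in each case), where the list medians were -1.37 and -1.40.

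Of 14 macrophage and monocyte markers 0 passed in limma. At an unadjusted p under 0.05, which 21.1% of all genes reached in either direction, 5 were higher and 2 lower. With arrays scaled to the spiked-in controls 5 rose, where 8.87% of all genes did. As deposited, the medians of these markers were 0.059 and 0.060 on the SPI arrays, against -0.10 and -0.043 on the CAS arrays. Ptprc, found on all leukocytes, was at 0.22, Csf1r at 0.14 and the neutrophil gene S100a8 at -0.49, none of which passed. Of 8 neutrophil markers 0 passed in limma, with 2 lower at an unadjusted p under 0.05, and of 10 T and NK cell markers 0, with 1 higher. Of 17 basal and myoepithelial markers 3 rose, Krt15, Oxtr and Trp63, where 0.781% of all genes did. Krt5 (-0.04) and Krt14 (0.15) did not pass. Since no levels remain, the amount of any of these markers cannot be given.

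**Figure D4:**
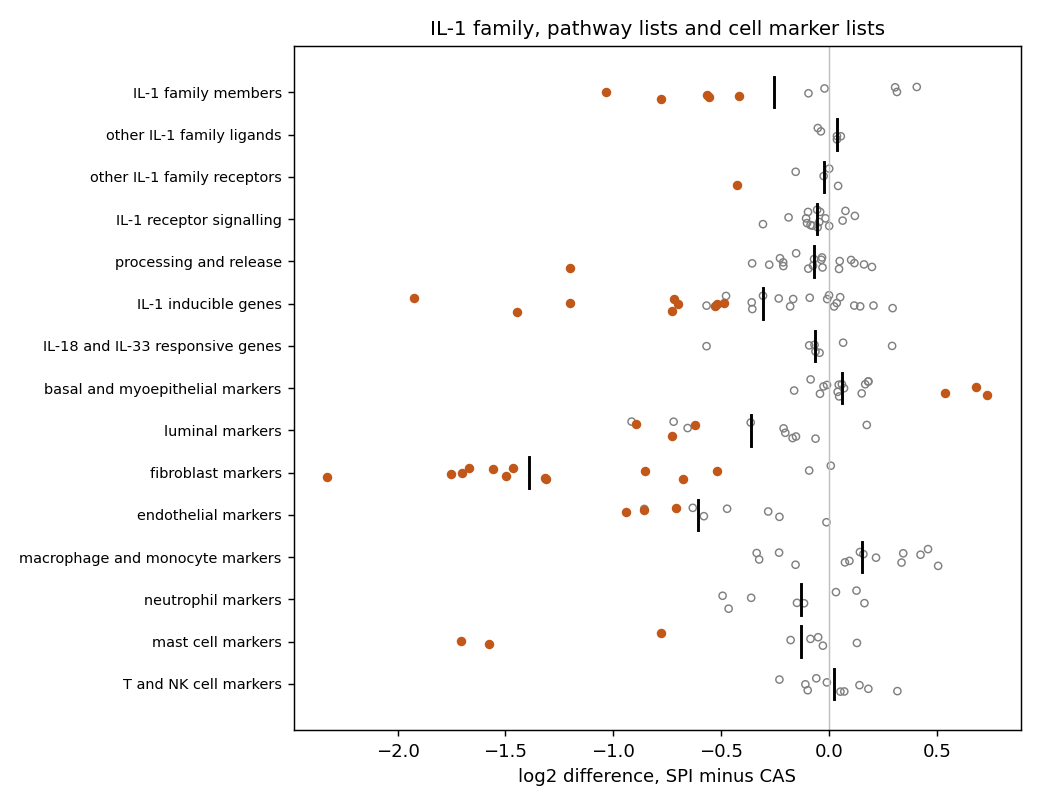
Log2 difference, SPI minus CAS (horizontal axis), of each gene of the IL-1 family, the pathway lists and the cell marker lists (rows), with 2 arrays per diet. Filled orange points passed an adjusted p of 0.05, open points did not, and black bars are list medians. The median is -0.26 for the IL-1 family, -0.31 for the IL-1 inducible genes and -1.39 for the fibroblast markers.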

How the data were processed

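RNA of sorted mammary basal cells was measured on 4 Affymetrix arrays, 2 per diet. The labels' protocols name a PicoPure extraction and in vitro transcription with biotin. The submitters' processing notes list GCOS and RMA, whose versions are not given in the sources used here. Expression as deposited by the authors is on a log2 scale, and the numbers themselves show that each probe set was centred on its median over the 4 arrays (to within 5e-07), a step no label records. No raw signal was used, so background correction and quantile normalization were not varied.

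The table held 45101 probe sets, 64 of them controls. Of 45037 others, 34945 had 1 gene in the platform annotation, 932 several and 9160 none listed, and gene IDs of 34741 were in a GRCm38.p6 gene table used to update symbols. Level classes were read from the step between values, leaving out values under 0.001, which carry fewer digits. Of ribosomal protein probe sets, 73 of 94 were in the class 8 to 16, against 1 of 41 for olfactory receptors. Of untied probe sets in that class 16.2% had a step coarser than the class needs, so some probe sets stand a class too high. The 1798 probe sets with equal values on 2 or more arrays were given no class. This choice was made after the values were seen. A gene's value is the mean of its probe sets in its highest class, and a probe set with no class was used only where a gene had no other.

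The diets were compared in limma 3.58.1 (R 4.3.3) by a two-sided moderated test of SPI minus CAS without a block. P-values were adjusted by Benjamini-Hochberg over 18193 genes, with a threshold of 0.05. The spread had 2 residual and 3.10 prior degrees of freedom, and the number of arrays limits the precision. The fit was tested on 5 simulated sets with 200 changed genes each. Their arrays were drawn independently, so they cannot show how a spread shared by the arrays of a diet would affect the calls. Alternatives were a replicate block, each array left out, arrays centred on their median or on 18 spiked-in hybridization control probe sets, the mean of all probe sets, every probe set alone, a filter at level 4, a robust prior and, added after the data were seen, tied probe sets keeping their class. All probe sets of the 10 genes are given, with every companion gene past the threshold, or the 3 with the smallest p where a list had none. Companion lists were IL-1 family ligands and receptors, signalling, processing and release, IL-1 inducible genes, and IL-18 and IL-33 responsive genes. The members and lists were chosen with earlier results of these data known. IL-36 symbols were matched through synonyms.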

Additional observations from a re-analysis of the deposited data

How the results depend on the processing

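The count of IL-1 family genes that passed, 5 on all 4 arrays, was 1 with a replicate block and 1 with every probe set on its own, Il1r1 in both, 0 to 2 without 1 array, and 4, without Il1r1, where tied probe sets keep their class. The companion count of 11 was 5 with a replicate block and 0 to 5 without 1 array. The replicate block paired arrays by number, and the labels used here name no pairing. The deviations of same-numbered arrays correlated at -0.083 across genes, which cannot show whether the arrays were paired in handling. Over all genes 384 passed with the block, against 678. Scaling to the spiked-in hybridization controls moved the split of calls over all genes to 513 lower and 1614 higher, against 536 and 142. Of the family 4 were then lower (all but Il1rn of the 5) and 3 higher. Il1b turned to 0.13 there and to 0.037 without CAS replicate 2, and Il18bp to 0.060 there, 0.031 without CAS replicate 2 and 0.083 without SPI replicate 1, and neither gene passed in any setting. Without 1 array Il1b ran between -0.079 and 0.037 and Il18bp between -0.27 and 0.083. At level 4 or above 1126 of 13442 genes passed and 6 of the family, and fewer genes were tested. Over all genes 0 passed in limma without CAS replicate 1 (3126 at an unadjusted p under 0.05) and without CAS replicate 2 (2865), 266 without SPI replicate 1 and 134 without SPI replicate 2. The other 8 genes of the family kept their sign in every setting, Il1r1 between -0.13 and -1.11. The cause of these changes was not tested.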
